A study of Mus musculus with 2 samples.

Results

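A bidirectional promoter serves 2 protein-coding genes that are read away from each other, 1 on each strand, from starts that lie close together. The peaks of Rfx6 at such promoters were collected from the list of 23308 peaks called in a ChIP-seq experiment in Min6b1 cells, a mouse pancreatic β cell line. A peak was a member when a protein-coding transcript of the plus strand and one of another gene on the minus strand both started within 1 kb of its summit, by position alone (GENCODE M1, mm9). By this rule 423 of the 23308 peaks were members. The rule did not ask that the genes be read away from each other, and in 94 members their 5′ ends overlapped. The name bidirectional promoter below includes such pairs. A further 4479 peaks had their summit within 1 kb of protein-coding starts of one strand only (one-strand promoter peaks), and the other 18406 lay away from such starts.

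The Min6b1 cells were transfected with the plasmid pCMV-Tag2A-3HA-Rfx6, and the HA-tagged protein was precipitated with the anti-HA antibody 12CA5. The control was an anti-HA ChIP of cells labelled Min6b1, without mention of 3HA-Rfx6. The growth text attached to both libraries describes the transfection, so whether the control cells took up a plasmid could not be settled from the labels. There was 1 library of each condition, the tagged protein was made from a plasmid in a cell line, and a peak list holds no expression by which the β cell identity could be checked. No value below therefore has a replicate error, and no difference between groups of peaks was tested. MACS kept 33949757 reads of the 3HA-Rfx6 library and 3567375 of the control, which entered through the peak calling and the fold enrichment, score and FDR of each peak. All intervals are 95% intervals that cover counting error only, and peaks of 1 library are not replicates.

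Rfx6 belongs to the RFX family, whose winged-helix DNA-binding domain recognises the X-box, an imperfect inverted repeat of the arm GTTGCC. Rfx6 is required for the formation of islet endocrine cells and for the function of mature β cells, and other family members are known as regulators of genes of the cilium. Bidirectional promoters are in general rich in CpG and poor in TATA boxes, and many serve housekeeping genes, among them genes of DNA repair, of mitochondria and of histones.

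The X-boxes at the summits of 5 of the members with the most reads among those that held one are shown here, since they are the sequence the protein is known to recognise. Each is given 5′ to 3′ on its named strand of mm9 with 7 flanking bases on either side, and the capitals mark the X-box.
Stk19/Dom3z, chr17:34973609-34973636, minus strand: tagggtaGTAACCATGGCAACccaggcg
Gtf3c4/Ddx31, chr2:28695875-28695901, minus strand: gggtggcGTTGCCTAGCAACgacgggg
Tctn3/Entpd1, chr19:40686842-40686868, plus strand: ggttcccGTTACCTGGCAACcgctggg
1700088E04Rik/Polr2f, chr15:78971666-78971693, plus strand: gctccttGTTACCATGGTAACtagcgac
Kirrel2/Nphs1, chr7:31242786-31242812, minus strand: cccagccGTCGCCCGGCAACcactcac

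Pairs are written with the gene of the minus strand before the gene of the plus strand. The box lay 11 bp from the summit at Stk19/Dom3z, 15 bp at Gtf3c4/Ddx31, 42 bp at 1700088E04Rik/Polr2f and 5 bp at Kirrel2/Nphs1, and it covered the summit at Tctn3/Entpd1. Of these 5 boxes, those of Gtf3c4/Ddx31 and Kirrel2/Nphs1 lay outside annotated genes.

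Reads per peak, as deposited and not normalised, ranged over the members from 30 to 592, with quartiles of 55 and 129.5 and a median of 81 (interval 74 to 88). One-strand promoter peaks had a median of 82 (80 to 84), and peaks away from starts had 70 (70 to 71). The ratio of the medians of bidirectional and one-strand promoter peaks was 0.988 (0.902 to 1.07), so that the interval held 1. This interval takes the one-strand median as fixed and leaves out its error. Peak length ran from 595 to 3388 bp, with a median of 1273 bp (1248 to 1324), beside 1268 bp at one-strand promoters and 1181 bp away from starts. A second start on the other strand thus went with no difference in reads or length beyond the intervals, while both kinds of promoter peak had more reads and were longer than peaks elsewhere.

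**Figure D1:**
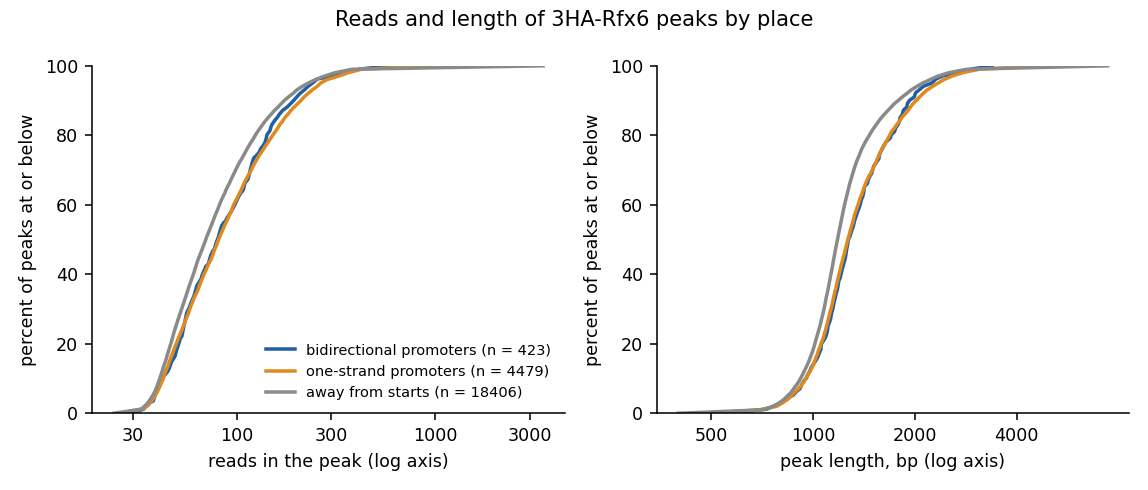
Share of peaks (percent, y axis) at or below each number of reads (left, log axis) and each length in bp (right, log axis), for the 423 bidirectional promoter peaks, the 4479 one-strand promoter peaks and the 18406 peaks away from starts. The curves of both kinds of promoter peak lie on each other, with median reads of 81 and 82, and to the right of the curve of the other peaks.

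Fold enrichment over the background, a ratio that MACS computed from the control and the surrounding reads, ranged from 2.86 to 58.38 with a median of 8.71 (8.24 to 9.42), beside 8.94 at one-strand promoters. A fold enrichment of at least 10 was reached by 180 members (42.6%, 37.9 to 47.3), where 39.6% of all peaks reached it. Among the tenth of peaks with the most reads (182 or more) there were 49 members (11.6%, 8.87 to 15.0), beside 10.1% of all peaks. Both shares of members were near those of all peaks. Across the 423 members, reads ranked with length (Spearman's rho 0.842) and with fold enrichment (rho 0.826), which are measures of the same reads, and hardly with GC content (rho 0.0986).

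The peak with the most reads, 592 (545 to 642), lay at Neurl2/Ctsa on chromosome 2, 253 bp inside Ctsa, which encodes the lysosomal protein cathepsin A. It was 2961 bp long, its fold enrichment was 40.02, and only 0.21% of all peaks had as many reads. Its deposited FDR was 25.29%, and the FDRs of the members named next, down to Arl3/Sfxn2, ran from 6.37 to 21.36%. The 3 members with the fewest reads, named further below, had FDRs of 1.78 to 2.12%. A high number of reads thus did not go with a low FDR among these members.

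Mrpl47/Ndufb5, which encode a protein of the mitochondrial ribosome and a subunit of respiratory complex I, had 460 reads and a fold enrichment of 53.43. These genes overlapped at their 5′ ends, with starts 20 bp apart, and the summit lay in an intron. Dffb/BC046331 had 419 reads, Gba2/Rgp1 416, Helq/Mrps18c 403 and 2610024G14Rik/Polr2b 385. Dffb encodes the nuclease that cuts DNA in apoptosis, Gba2 a glucosylceramidase, Rgp1 a part of the exchange factor of Rab6, Helq a DNA helicase, Mrps18c a protein of the mitochondrial ribosome, and Polr2b a large subunit of RNA polymerase II. The summit lay 44 bp inside BC046331, 223 bp inside Gba2, 110 bp inside Helq and 537 bp inside 2610024G14Rik.

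Trak2/Stradb had 361 reads, Prom1/Gm16401 360, Cog8/Nip7 356, Tnfaip1/Ift20 355 and Arl3/Sfxn2 338. The intervals of these 5 overlapped, so their order was not resolved. Tnfaip1/Ift20 had the highest fold enrichment of the members, 58.38. Its summit lay 71 bp inside Ift20, which encodes a protein of intraflagellar transport, the traffic that builds the cilium. Arl3 encodes a small GTPase of the cilium, Trak2 an adaptor that links mitochondria to kinesin, Stradb a pseudokinase that activates the kinase LKB1, Cog8 a Golgi tethering protein and Nip7 a factor of ribosome assembly. At Trak2/Stradb, Cog8/Nip7 and Arl3/Sfxn2 the summits lay 558, 593 and 485 bp from the nearer start, in introns.

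**Figure D2:**
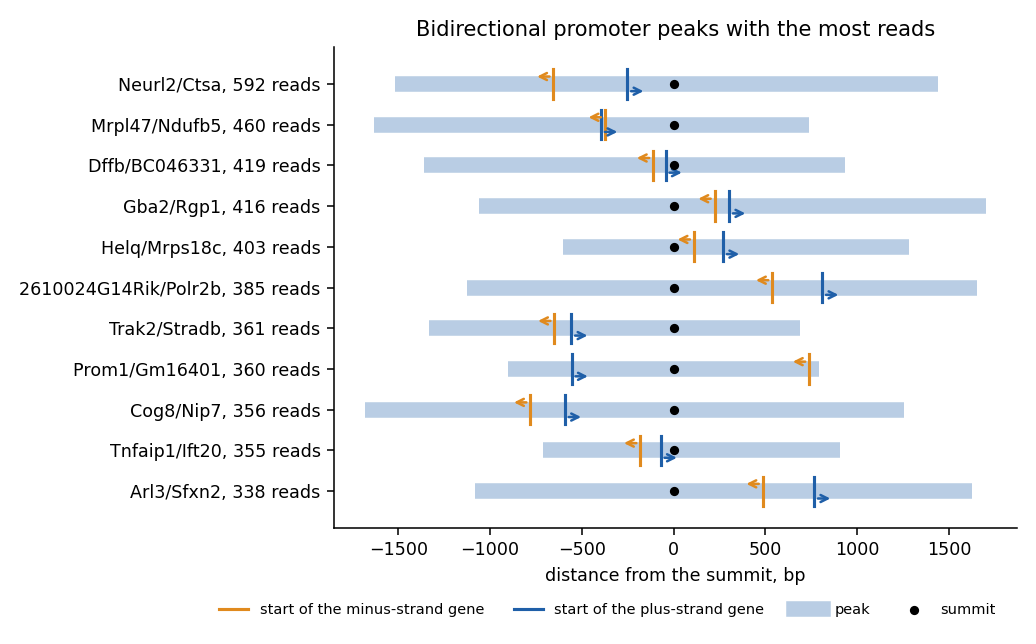
Bidirectional promoter peaks with the most reads (11 shown), 1 row each with its reads, drawn to scale by distance from the summit (bp, x axis): the peak (light bar), its summit (point) and the nearest start on each strand (ticks with arrows in the direction of transcription). Each of the 11 peaks covers both starts. The summit lies to 1 side of both starts except at Prom1/Gm16401, where the genes overlap at their 5′ ends and the summit is inside both.

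The whole stretch between the starts is shown for those members where it held 40 to 300 bases and no annotated exon, since that is the DNA the pair shares. The sequences are those of the plus strand of mm9, from the base after the start of the minus-strand gene to the base before the start of the plus-strand gene. Capitals mark matches to the searched motifs on either strand: the GC box GGGCGG, the CCAAT box, the ETS motif CCGGAAG, the E-box CACGTG and the X-box.
Dffb/BC046331, chr4:153349236-153349302: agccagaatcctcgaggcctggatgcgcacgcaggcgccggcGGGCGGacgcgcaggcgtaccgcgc
Trak2/Stradb, chr1:59030275-59030365: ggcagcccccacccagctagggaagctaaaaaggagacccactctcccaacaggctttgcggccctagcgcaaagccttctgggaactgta
Cog8/Nip7, chr8:109580590-109580776: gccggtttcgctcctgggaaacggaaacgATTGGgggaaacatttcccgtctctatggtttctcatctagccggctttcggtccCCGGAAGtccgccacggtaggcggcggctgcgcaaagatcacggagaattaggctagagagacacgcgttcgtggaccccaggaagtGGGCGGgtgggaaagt
Arl3/Sfxn2, chr19:46647576-46647854: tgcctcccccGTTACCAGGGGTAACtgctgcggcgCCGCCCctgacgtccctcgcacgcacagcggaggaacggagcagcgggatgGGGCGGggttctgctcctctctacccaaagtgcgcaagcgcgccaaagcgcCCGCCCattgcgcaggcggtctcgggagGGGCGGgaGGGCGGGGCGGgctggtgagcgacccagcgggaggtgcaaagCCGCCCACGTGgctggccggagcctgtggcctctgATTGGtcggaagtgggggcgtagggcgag

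The stretch of Arl3/Sfxn2 held an X-box near its left end, 496 bp from the summit, besides GC boxes, an E-box and a CCAAT box. Cog8/Nip7 held a CCAAT box, an ETS motif and a GC box, Dffb/BC046331 a single GC box, and Trak2/Stradb none of the motifs searched.

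At the other end, the members with the fewest reads were Cbln3/Khnyn with 30 (20.2 to 42.8), Smyd1/Cd8b1 with 31 (21.1 to 44.0) and Rnf166/Ctu2 with 32 (21.9 to 45.2). Their intervals overlapped, and 99.5 to 99.8% of all peaks had as many reads. Rnf166/Ctu2 was also the shortest member, with 595 bp. The longest, 3388 bp at Ssna1/Anapc2, held 210 reads (183 to 240) at a fold enrichment of 4.27, below the first quartile of the members (6.12). Length and fold enrichment could thus differ widely within a member.

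The members were placed next by their nearest start on each strand. In 329 members (77.8%) the pair was head to head, the minus-strand start to the left of the plus-strand start, and in 94 (22.2%) the 5′ ends overlapped. The median spacing of the head to head starts was 188 bp, with quartiles of 99 and 338 and a range of 1 to 1548. The peak covered both nearest starts in 348 members (82.3%, 78.3 to 85.6). The summit was a median of 148 bp (120 to 173) from the nearest start, where a start on either strand could be the nearest, and 272 bp (260 to 282) at one-strand promoters. The nearest start was on the plus strand in 212 members and on the minus strand in 211.

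At head to head pairs most summits lay inside a gene, as did most of the length in which the rule could place them. Of the 329 head to head members, 74 (22.5%, 18.3 to 27.3) had their summit between the starts, 134 (40.7%) past the start of the plus-strand gene and 121 (36.8%) past the start of the minus-strand gene. The stretch between the starts made up 15.7% of the length in which the rule could place a summit at these pairs. The 22.5% of summits there was above this share, so summits were denser per length between the starts. This was not tested. At one-strand promoters 64.9% of summits were inside the gene. By annotation, 180 member summits (42.6%) lay in noncoding parts of exons, 113 (26.7%) in introns, 92 (21.7%) in coding exons and 38 (8.98%) outside genes.

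Reads were also compared by the spacing of the starts. Their median was 96 (78 to 108) at the 94 members with overlapping 5′ ends, 78.5 (67 to 98) at spacings of 1 to 150 bp, 81.5 (67 to 100) above 150 and up to 300 bp, 71.5 (59 to 82) above 300 and up to 1000 bp and 82 (38 to 142) at the 9 members above 1000 bp. Each of these intervals overlapped the others, so that no difference by spacing was resolved. Members with the summit between the starts had a median of 77 reads (63 to 89), beside 82 (74 to 91) for the other members.

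The 500 bp around the summit were CpG-rich, here an observed to expected ratio of CpG of at least 0.6 with a GC content of at least 50%, in 343 members (81.1%, 77.1 to 84.5). This share was 63.4% (61.9 to 64.8) at one-strand promoters and 2.83% (2.60 to 3.08) away from starts. The median GC content of the members was 63.2%, beside 62.6% and 51.0%, and the median CpG ratio 0.771, beside 0.702 and 0.192. Members thus lay in the most CpG-rich sequence of the 3 groups, and the rule did not use composition.

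A strict X-box, with arms 0 to 3 bases apart, was searched on both strands in the 200 bp around each summit. It was found in 27 members (6.38%, 4.42 to 9.13), beside 6.42% of all peaks, 5.69% (5.05 to 6.41) of one-strand promoter peaks and 6.60% (6.25 to 6.97) of peaks away from starts. In equal windows placed 1 kb to the right it was found in 2 members (0.473%, 0.130 to 1.71), and around all 45947 protein-coding starts in 0.934%. Members therefore held the X-box at the rate of all peaks and above that of their flanks. The arm GTTGCC, inside a full X-box or not, occurred in 111 members (26.2%, 22.3 to 30.6), near the 26.8% of all peaks. It was found in 4.96% of the windows to the right of the members and in 8.28% of all starts. With a relaxed pattern, 41.8% of the members and 20.6% of the windows to the right held an X-box. Over all peaks these shares were 45.9% and 22.8%, so members were not above all peaks.

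Where the summit lay between the starts, the X-box was more frequent. It was present in 13 of these 74 members (17.6%, 10.6 to 27.8) and in 14 of the other 349 (4.01%, 2.40 to 6.62), and the intervals did not overlap. The like division of the one-strand promoter peaks gave 10.3% (8.88 to 11.9) of the 1565 summits upstream of the start and 3.23% (2.64 to 3.93) of the 2914 downstream of it. Within CpG-rich sequence these shares were 11.4% and 2.20%. The rate was thus higher between the nearest starts at members and upstream of the nearest start at one-strand promoters. Other annotated transcripts could cover such summits. This division was made after the values had been seen and was not tested.

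**Figure D3:**
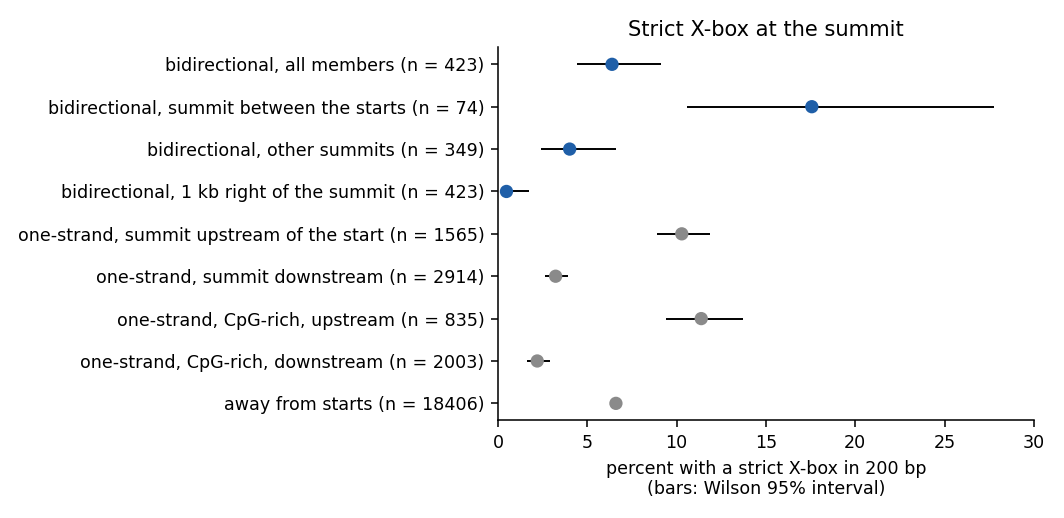
Percent of peaks (x axis) with a strict X-box in the 200 bp around the summit, with Wilson 95% intervals as bars, for members in blue and for other peaks in grey, with the number of peaks beside each name. The share is 17.6% for the 74 summits between the starts, above the 4.01% of the other members, and the one-strand promoter peaks upstream of their start (10.3%) stand above those downstream (3.23%).

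The 27 members with an X-box had a median of 100 reads (75 to 133) and a fold enrichment of 12.35 (9.42 to 16.71), beside 79 reads (73 to 84) and 8.515 (8 to 9.18) for the 396 without. The intervals of the fold enrichment were apart and those of the reads were not. One-strand promoter peaks gave 92 and 81 reads and fold enrichments of 12.12 and 8.71. Most of the box edges lay close to the summit, at a median distance of 11 bp with quartiles of 0 and 37.5. When each whole peak was searched, an alternative added after the data had been seen, 39 members (9.22%, 6.82 to 12.4) held 42 boxes, of which 28 were within 100 bp of the summit. The same peaks moved by 5 kb to the right gave 1.65% (0.804 to 3.38). Over all peaks these shares were 8.87% for the whole peak and 2.22% for the moved peak, near those of the members.

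Stk19/Dom3z had 236 reads and Gtf3c4/Ddx31 232, with fold enrichments of 16.95 and 12.80. Stk19 and Dom3z lie in the histocompatibility region and Dom3z encodes an enzyme that removes faulty RNA caps, while Gtf3c4 encodes a subunit of the factor TFIIIC and Ddx31 an RNA helicase. Tctn3/Entpd1 had 176 reads and a fold enrichment of 25.19. Tctn3 encodes tectonic-3 of the ciliary transition zone, and Entpd1 the ectonucleotidase CD39. At 1700088E04Rik/Polr2f and Kirrel2/Nphs1 there were 150 reads each, at fold enrichments of 12.24 and 25.42. Kirrel2 and Nphs1, which encodes nephrin, are adhesion proteins of the kidney slit diaphragm, and Kirrel2 is also known from β cells. This summit lay between starts 800 bp apart, in sequence that was not CpG-rich.

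Further members with an X-box, named here because they were counted and not by a rule, were Wdr54/1700003E16Rik with 142 reads, 2310028H24Rik/Dnaic1 with 133, Cinp/Tecpr2 with 131, Mdh1/Wdpcp and A930002H24Rik/Fer with 118 each, Dhx57/Morn2 with 117, Ppil3/Nif3l1 with 102, Fbxl13/Armc10 with 100 and Gm11696/Gna13 with 95. Tbc1d16/Ccdc40 and Klhl18/Kif9 had 88 each, Eftud2/Ccdc103 84, Rnf5/Agpat1 80 and Smpd2/Ppil6 75. The 7 with the fewest reads were Foxred1/Srpr with 69, Pex11a/Wdr93 with 55, Spa17/Siae with 54, Ribc1/Smc1a with 52, Lyrm4/Fars2 with 45, and Prr3/Gnl1 and Pcnxl3/Map3k11 with 39 each. These genes had varied roles, and no list of them was fixed. Mdh1 encodes a malate dehydrogenase, Gna13 a G protein subunit, Smc1a a subunit of cohesin, Eftud2 a GTPase of the spliceosome, Srpr a receptor subunit for the signal recognition particle, and Fer and Map3k11 kinases. Dnaic1 encodes an intermediate chain of the dynein of motile cilia, Ccdc40 and Ccdc103 proteins needed to place dynein arms on the axoneme, Kif9 a kinesin of the axoneme and Wdpcp a protein of ciliogenesis. The box covered the summit at Klhl18/Kif9 and Eftud2/Ccdc103 and lay 14 bp from it at Tbc1d16/Ccdc40 and 8 bp at Mdh1/Wdpcp.

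**Figure D4:**
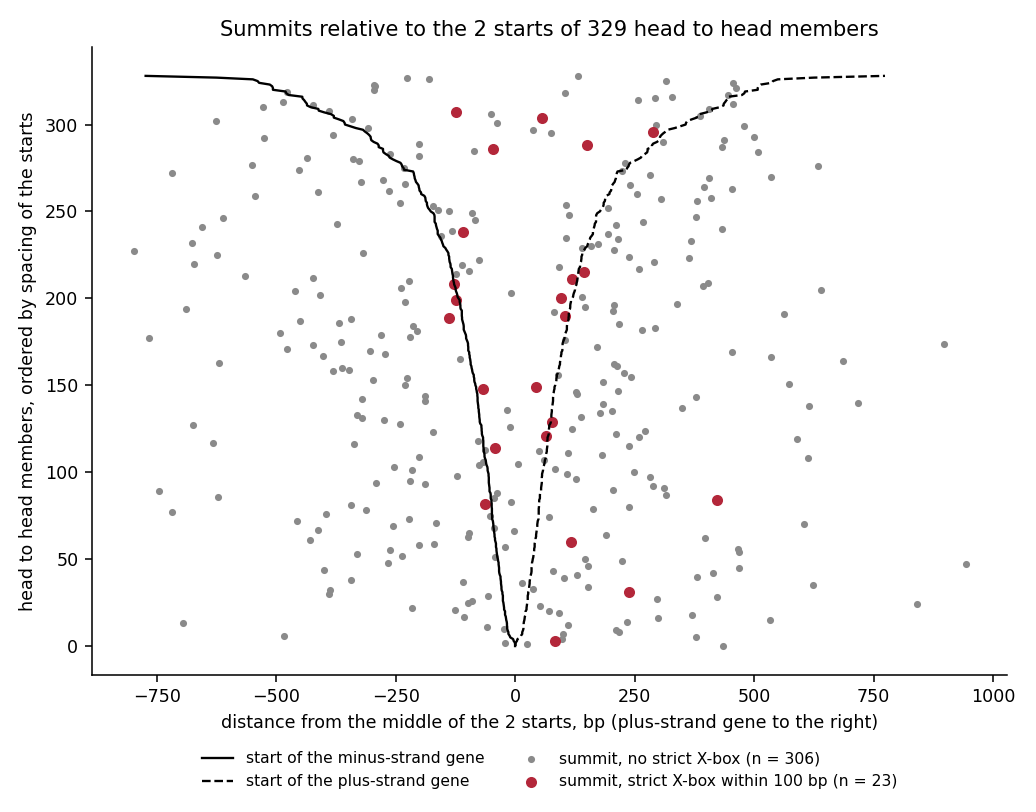
Summits of the 329 head to head members, 1 per row, ordered by the spacing of their starts (y axis), at their distance in bp from the middle of the starts (x axis), with the starts as a solid and a dashed line. Summits with a strict X-box within 100 bp are red and the others grey. Most summits lie outside the lines, 134 past the plus-strand start and 121 past the minus-strand start, and 13 of the red points lie between them. The stretch between the lines is 15.7% of the length in which the rule could place a summit.

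Other motifs of CpG-rich promoters were also present. The GC box was found in 36.9% (32.4 to 41.6) of the 200 bp windows around member summits, beside 33.7% at one-strand promoters and 5.04% away from starts. Within CpG-rich sequence the order was the opposite, with overlapping intervals, at 41.7% (36.6 to 47.0) of 343 members and 45.3% (43.5 to 47.2) of one-strand promoter peaks. The ETS motif was found in 8.04% (5.81 to 11.02), beside 5.11% (4.51 to 5.797) and 1.31%, and within CpG-rich sequence in 8.75% (6.20 to 12.2) of members and 6.27% (5.44 to 7.22) of one-strand promoter peaks. The CCAAT box was found in 14.7% (11.6 to 18.3) of members, near the 13.5% of one-strand promoter peaks and the 16.9% of all peaks. These shares were below those of the windows to the right of the members (27.4%) and of all protein-coding starts (24.5%). The TATA box TATAAA occurred in 0.946% of members, in 1.47% of one-strand promoter peaks and in 6.66% of all starts. The cyclic AMP response element TGACGTCA (0.709%), the NRF1 motif GCATGCGC (1.42%), the E-box (4.96%) and the YY1 motif AAGATGGCG (0.946%) were found in few members. Each of these shares was above that of all peaks. All peaks held the response element at 0.287%, the NRF1 motif at 0.420% and the E-box at 2.73%. For the response element, the interval of the members (0.241 to 2.06) included the share of all peaks. In the same order, one-strand promoter peaks held 0.647, 0.871, 3.84 and 0.514%, and all starts 1.65, 2.29, 5.19 and 1.84%. Each of these values lay within the interval of the members. Each motif was searched on both strands, and a match describes the sequence alone.

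Seen from the genome, 1433 stretches lay within 1 kb of protein-coding starts on both strands, and 419 of them (29.2%, 26.9 to 31.6) held a summit. Of the 28744 stretches near starts of one strand, 15.2% (14.8 to 15.6) held one. Per megabase this came to 178 summits (161 to 196) and 79.2 (76.9 to 81.5), so that stretches of both strands held more per length as well as per stretch. The 28744 include, as stretches of their own, the parts near one strand that lie beside a stretch of both strands. The 15.2% is therefore not a share of whole one-strand promoters. Since bidirectional promoters are mostly CpG-rich, the most upstream start of each gene was also divided by composition. Among starts with an opposite start within 2 kb, 78.4% were CpG-rich, against 43.9% of the others.

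Within CpG-rich sequence, 34.6% (32.6 to 36.6) of the 2179 starts with an opposite start had a summit within 1 kb, and 32.3% (31.3 to 33.3) of the 8582 without. Within CpG-poor sequence the shares were 20.4% (17.4 to 23.8) of 602 and 7.95% (7.46 to 8.47) of 10985. The shares thus had overlapping intervals at CpG-rich starts and separate ones at CpG-poor starts. Both starts of a pair can count the same summit, so the intervals are too narrow for starts with an opposite start. This division was also made after the values had been seen.

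An X-box divided the bidirectional promoters more sharply. In the middle 500 bp of the 1433 stretches, 41 held a strict X-box, and 31 of these (75.6%, 60.7 to 86.2) had a summit. Of the 1392 without, 388 (27.9%, 25.6 to 30.3) had one. Put the other way, the X-box was in 7.399% (5.26 to 10.3) of the stretches with a summit and in 0.986% (0.537 to 1.81) of those without. The arm GTTGCC was in 29.8% and 16.2%, the GC box in 81.1% and 65.2%, and the CCAAT box in 44.6% and 46.3%. Most occupied bidirectional promoters had no strict X-box in this window.

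**Figure D5:**
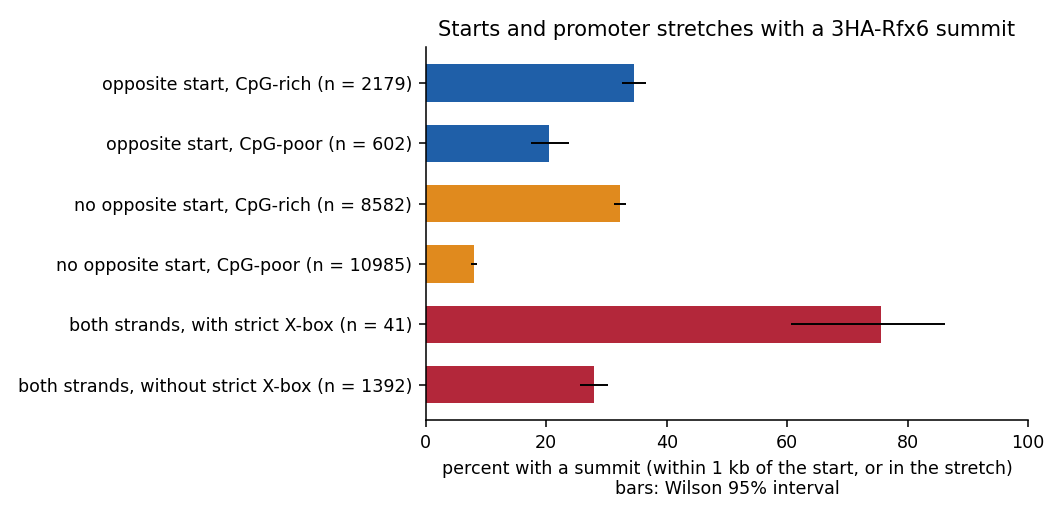
Percent with a 3HA-Rfx6 summit (x axis, from 0), with Wilson 95% intervals as bars: the most upstream start of each gene by its composition and by an opposite start within 2 kb (blue with, orange without), and the stretches near starts of both strands by a strict X-box in their middle 500 bp (red). The CpG-rich starts are close to each other at 34.6% and 32.3%, and the stretches with an X-box stand at 75.6% against 27.9%.

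By genes, 2836 protein-coding genes had a bidirectional promoter and 841 of them (29.7%) had a member peak. Counting any summit within 1 kb of a start, the shares were 34.2% (32.4 to 35.9) of these genes and 20.9% (20.4 to 21.5) of the other 19512. The gene lists below are counted by symbol and read against the 29.7%. Genes that share a promoter are counted separately, so the intervals are too narrow for the 2836 genes and for lists with such pairs.

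Genes of cilia and the basal body had a member peak at 8 of the 17 (47.1%, 26.2 to 69.0) that had a bidirectional promoter. The interval held the background share. Over the whole list, which includes genes without a bidirectional promoter, 37 of 66 genes (56.1%) had a summit within 1 kb of a start, beside 22.6% of all 22348 protein-coding genes. The members were Ift20 with 355 reads, Arl3 with 338, Tctn3 with 176, Cluap1 with 146, Dnaic1 with 133, Ift122 with 123, Nphp4 with 55 and Iqcb1 with 39. Of these, the peaks of Tctn3 and Dnaic1 had a strict X-box at the summit. Ift122 and Cluap1 act in intraflagellar transport, and Nphp4 and Iqcb1 at the base of the cilium. Bbs12, Cep290, Ift80, Mkks, Ofd1 and Rpgrip1l had a bidirectional promoter without any summit within 1 kb.

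Of the genes of RNA polymerases and general transcription factors, 11 of 26 (42.3%, 25.5 to 61.1) had a member peak, led by Polr2b and Gtf3c4, with 49 to 385 reads. The proteasome had 4 of 9 (44.4%, 18.9 to 73.3), led by Psmc2, an ATPase of its regulatory particle, at Dnajc2/Psmc2 with 191 reads, and by Psmb9, an inducible catalytic subunit, at Psmb9/Tap1 with 110. Symbols of the respiratory chain had 12 of 32 (37.5%, 22.9 to 54.7), led by Ndufb5 and by Sdhd, a membrane anchor of complex II, at Sdhd/Timm8b with 204 reads. This list, made by the start of the symbol, also holds genes that encode no subunit of the chain. Among them are the assembly factor Ndufaf2 and Cox4nb, both counted in the 12. Mitochondrial ribosomal proteins had 10 of 31 (32.3%, 18.6 to 49.9), led by Mrpl47 and Mrps18c, with a median of 93 reads over the 10 peaks. All of these intervals held the background.

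Chaperones had 6 of 27 (22.2%, 10.6 to 40.8), led by Hspa14/Cdnf with 294 reads and Dnajc2/Psmc2. The chaperonins Hspd1 and Hspe1, which share a promoter, had 62 reads. Cytosolic ribosomal proteins had 4 of 15 (26.7%, 10.9 to 52.0), led by Rpl36al/Mgat2 with 149 reads and Sphk2/Rpl18 with 119. Aminoacyl-tRNA synthetases had 2 of 11 (18.2%, 5.14 to 47.7), S100pbp/Yars with 140 reads and Lyrm4/Fars2 with 45. At Lyrm4/Fars2 the X-box covered the summit.

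DNA repair had 7 of 37 (18.9%, 9.48 to 34.2), an interval that held the background. The peak with the most reads was that of Xrcc1, a scaffold of single-strand break repair, at 2310033E01Rik/Xrcc1 with 204 reads, followed by Prkdc, the kinase of end joining, at Mcm4/Prkdc with 160. Brca1, Atm and Fancd2 had a bidirectional promoter and no summit within 1 kb. Zinc finger proteins had 5 of 33 (15.2%, 6.65 to 30.9), led by 1300018I17Rik/Zfp276 with 95 reads and Zfp866/Atp13a1 with 54.

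Histone genes had the lowest share, 4 of 37 (10.8%, 4.29 to 24.7), but the 4 genes shared 2 peaks. Counted by promoter stretch, 2 of 16 (12.5%, 3.498 to 36.0) held a summit, an interval that held the 29.2% of all such stretches. Both peaks had few reads, Hist2h2ac/Hist2h2ab with 54 reads (40.6 to 70.5) and Hist1h2ak/Hist1h2bn with 34 (23.5 to 47.5). Histone genes occur in near-identical copies, and how reads that fit several copies were placed is not given in the sources used here, so this share is uncertain.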

How the data were processed

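Anti-HA ChIP-seq was done in Min6b1 cells, with 1 library of 3HA-Rfx6 and 1 control. Per the labels and the file header, reads of 50 bases were mapped to mm9 (CASAVA 1.8.2 and Bowtie are named) and peaks were called with MACS 1.4.2 at a p-value cutoff of 1e-05. The deposited values are the count of reads per peak, the fold enrichment (a ratio to the background), a score (the p-value as −10 log10) and, in percent, an FDR, all of which the authors did not normalise further. The background rests on 3567375 control reads, against 33949757 of the 3HA-Rfx6 library.

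Summits (start + summit - 1) were placed on NCBIM37 with GENCODE M1 in Python 3.11.15 (numpy 2.4.6, pandas 2.3.3, scipy 1.17.1, pysam 0.24.0, matplotlib 3.10.9). Shares have Wilson intervals, reads exact Poisson intervals and medians order-statistic intervals, at 95%. The placement and the motif search were tested on simulated data. The members and gene lists were chosen with earlier results of these data known. Genes named are those at the 12 members with the most reads, the 6 X-box members with the most reads, the 3 with the fewest, the longest and shortest, the 2 with the most reads per list, and pairs with several members. The counts by promoter stretch, the motif shares within CpG-rich members and other genes named in a list were chosen after their values were seen. Some items are not reported here. Ribosomal symbols such as Rpl7l1 were left out. Alternatives were other distances, stricter peak sets, other starts, other windows and a relaxed X-box.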

Additional observations from a re-analysis of the deposited data

How the results depend on the processing

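No paired analysis was possible because the labels give no replicate numbers, and with a single library of each kind none could be left out. Of 71 alternative values, 50 stayed within the interval of the reported value, or within 1.5 times of a count. With a fold enrichment of at least 10, 180 members remained, with medians of 136 reads, 1472 bp and 14.59-fold, an X-box share of 10.56%, and summits in 12.56% of stretches of both strands and 6.509% of those of one strand. In the 50% of peaks with the highest scores there were 234 members, with medians of 119.5 reads, 1474 bp and 12.71-fold. Their X-box share was 8.974%, and 16.33% of stretches of both strands and 8.885% of those of one strand held a summit. These sets were chosen by measures of the same reads. Where the peak had to cover a start on each strand, the medians were 92 reads and 1355 bp. At 500 bp the shares with a summit were 21.83% and 11.52%, at 2 kb the one-strand share was 18.04%, and with the most upstream start of each gene it was 16.84%. The X-box share was 41.84% with the relaxed pattern and 9.22% over the whole peak. The ratios of reads and length to one-strand promoter peaks stayed within their intervals under each alternative run. The single library and the shallow control limit the precision of each value.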

Other observations

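At 5 gene pairs there were 2 member peaks. At 5330417C22Rik/1700013F07Rik they held 38 and 36 reads, at Gm3625/Itsn2 43 and 36, at Rfng/Gps1 47 and 40, and at Rom1/Eml3 35 and 42, all below the median of the members. At Sphk2/Rpl18 they held 119 and 57 reads and lay at different starts of the pair. Itsn2 encodes an endocytic scaffold, Rfng a glycosyltransferase that modifies Notch, Gps1 a subunit of the COP9 signalosome, and Sphk2 a sphingosine kinase.

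The nearest other summit was a median of 21965 bp from a member (19095 to 25618), 15719 bp from a one-strand promoter peak and 10467 bp from a peak away from starts. Another summit lay within 10 kb of 27.9% (23.8 to 32.4) of members, beside 39.2% (37.8 to 40.7) and 48.8% (48.1 to 49.5). By chromosome, 20 to 36.6% of the stretches near starts of both strands held a summit on the autosomes, and 4 of 40 (10%) on X, where 174 peaks were called in all. The copy number of these chromosomes in the cells was not measured.

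At the edge of the rule, the 14 members whose farther start was 901 to 1000 bp away had 36 to 153 reads, with a median of 52.5. The 12 peaks just outside, above 1000 and up to 1100 bp, had 45 to 374 reads, with a median of 92.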
